A study of Mus musculus with 6 samples.

Results

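The 10 genes described here encode parts of the circadian clock: Arntl (its protein is BMAL1), Clock, Per2, Per3, Cry1, Cry2, Nr1d1, Nr1d2, Dbp and Tef. They were picked by gene symbol as members of the clock, with earlier results of these data known. All 10 were found among the 17491 genes of the deposited table, and all 10 passed the filter on low counts, which kept 13366 genes. RNA-seq libraries came from osteoblasts grown out of wild-type mouse bone marrow mesenchymal stem cells, collected on day 7 of osteogenic culture. The 3 verapamil libraries came from cultures given verapamil, which blocks L-type voltage-gated calcium channels, and the 3 control libraries from cultures labelled as control. Both groups had the same osteogenic medium, which held serum, dexamethasone, β-glycerophosphate and ascorbic acid. The dose and duration of verapamil, the clock time of harvest, the time since the last medium change and the source of the replicates (cultures or animals) are not given in the labels. P-values therefore measure only the spread between these libraries, which may be technical.

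The clock is a feedback loop of transcription that runs in nearly every cell, bone cells included. BMAL1 and CLOCK pair up and activate genes through E-box sequences, among them the Period and Cryptochrome genes, whose proteins in turn repress the pair. A coupled loop is formed by the nuclear receptors REV-ERBα (Nr1d1) and REV-ERBβ (Nr1d2), which repress Arntl, and by ROR receptors, which activate it at the same sites. Dbp and Tef encode PAR bZIP factors that carry the rhythm to D-box sequences of output genes. In cultured cells serum and glucocorticoids reset the clock, and calcium and cAMP signals induce Per genes. Each group was sampled at a single time, so a shift of phase, a change in amplitude and a change in mean level cannot be told apart.

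Libraries held 18.2 M to 21.7 M estimated counts, and verapamil and control libraries separated along the first principal component (66.2% of the variance). Control replicates differed more from each other than verapamil replicates did, with a chi-square per degree of freedom of 3.49 to 6.0 between verapamil pairs and 12.1 to 47.8 between control pairs. Osteoblast markers were present, except that Ifitm5 was under 1 CPM in every library, and 11 of 13 were lower with verapamil, with a summed level of 27314 to 27430 CPM (counts scaled to library size with TMM factors) in verapamil and 44985 to 57324 CPM in control libraries. Macrophage markers were higher in 19 of 24 cases, summing to 22016 to 24730 CPM in verapamil and 12498 to 15224 CPM in control libraries, and none of them was at 0. Low-oxygen response genes were lower in 11 of 15 cases and higher in 1, with a summed level of 1297 to 1467 CPM in verapamil libraries and 2973, 4382 and 1961 CPM in control replicates 1, 2 and 3. Endothelial markers were lower in 2 of 5 cases and the other 3 did not pass, and lymphocyte markers summed to at most 0.141 CPM in any library. Of 5 adipocyte markers tested, 2 were higher and 1 lower, and of 2 osteoclast markers tested, 1 was lower. Higher and lower here mean past the edgeR test given below, which called 16.3% of all tested genes lower and 15.4% higher. These are bulk libraries, so fewer cells of a type and less RNA per cell cannot be told apart, and the part of these shifts in the clock results was not tested.

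Most of the core clock differed little between the groups, and 1 of the 10 genes passed the test. Arntl was lower with verapamil, and none was higher. The test was edgeR's quasi-likelihood test at a Benjamini-Hochberg adjusted p under 0.05 over all 13366 genes, 31.7% of which passed (16.3% lower and 15.4% higher). At an unadjusted p under 0.05 there were 3 clock genes (Arntl and Cry2 lower, Dbp higher), beside 43.4% of all genes. DESeq2 called 1 of the 10 (29.7% of all genes) and limma-voom called 2 (31.8% of all genes), 1 lower and 1 higher. With 1 library left out, none of the 10 was called without verapamil replicate 1, 2 or 3 or control replicate 1, 3 were without control replicate 2, and 2 without control replicate 3. Verapamil and control values did not overlap for 3 of the 10 genes, Arntl, Cry2 and Dbp, where 49.6% of all tested genes showed no overlap (25.2% with all verapamil values above and 24.4% with all below). The median absolute log2 fold change was 0.12 among the 10 clock genes and 0.20 among all tested genes. Of all calls, 48.5% were higher with verapamil, against 63.7% with scaling by library totals only.

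**Figure D1:**
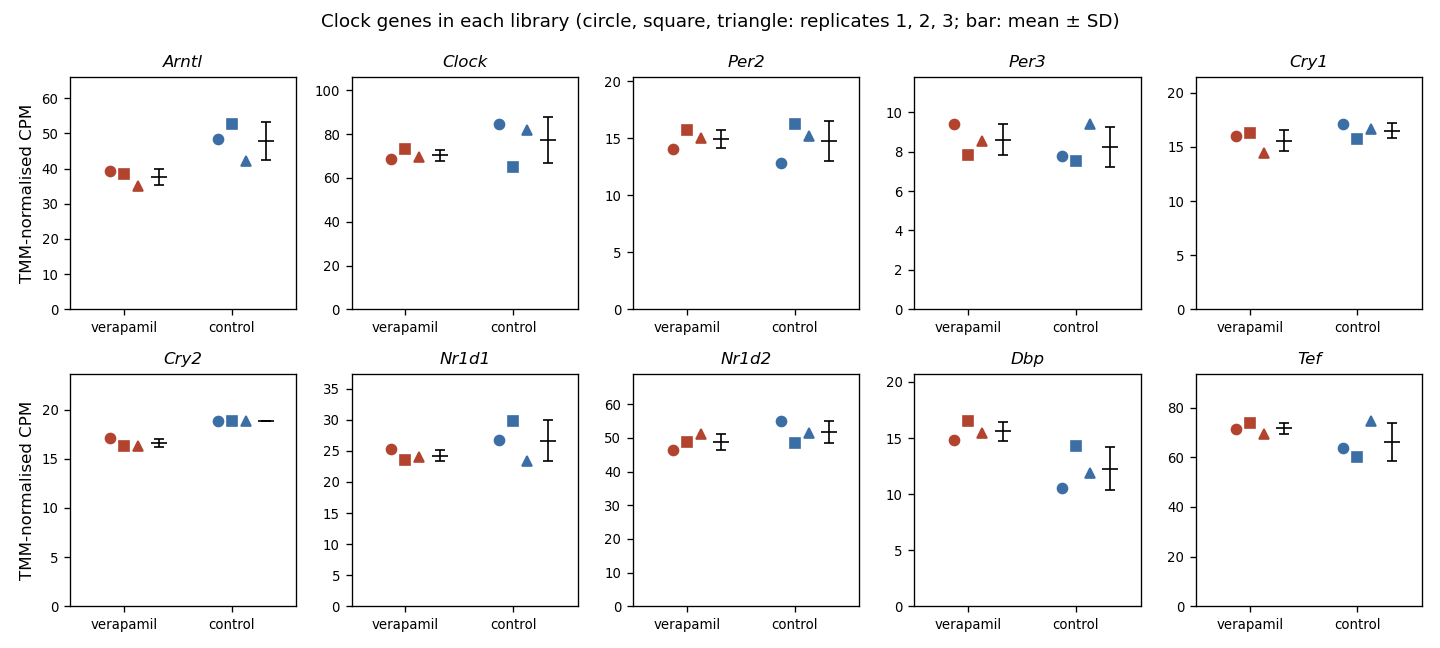
Level of each of the 10 clock genes in TMM-normalised CPM (vertical axis from 0) in the 3 verapamil libraries (left, red) and the 3 control libraries (right, blue). Symbols mark replicates and bars the mean ± SD (n = 3); the groups do not overlap for Arntl, Cry2 and Dbp.

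Of the activating pair, Arntl passed the test and Clock did not, and the difference between them was not tested. Arntl (Entrez 11865, chr7:113178471-113314126 in GRCm38.p6) had 39.4, 38.5 and 35.1 CPM in verapamil replicates 1, 2 and 3, against 48.3, 52.8 and 42.1 CPM in control replicates 1, 2 and 3. Every verapamil library lay below every control library. The means were 37.7 ± 2.25 CPM with verapamil and 47.7 ± 5.38 CPM in control (SD, n = 3 each), a change of -21.0% and a log2 fold change of -0.34 ± 0.09 SE (95% interval -0.55 to -0.13, edgeR adjusted p = 0.0228). The call was lost without verapamil replicate 1, 2 or 3 (adjusted p = 0.0563, 0.0672 and 0.0877) and without control replicate 1 (adjusted p = 0.0805), although the log2 fold change stayed between -0.43 and -0.27 with any 1 library left out. In controls Arntl was highest in replicate 2 and lowest in replicate 3, as was the summed level of the low-oxygen genes given above. Of the other clock members only Nr1d1 had this order. It was also the order of the first principal component (25.7, 41.1 and 11.2 in control replicates 1, 2 and 3), so it is not particular to Arntl. Whether Arntl and the low-oxygen genes are linked was not tested.

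Clock (Entrez 12753, chr5:76209868-76305603) encodes the partner of BMAL1. It had 68.6, 73.2 and 69.4 CPM in verapamil libraries, against 84.8, 65.1 and 82.1 CPM in control libraries. Control replicate 2 lay below all verapamil libraries and the other control libraries above them, so the groups overlapped. The log2 fold change was -0.14 ± 0.10 SE (95% interval -0.36 to 0.09, edgeR adjusted p = 0.32). Without control replicate 2 it was -0.25 and passed (adjusted p = 0.00426), beside -0.27 for Arntl (adjusted p = 0.0200).

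Neither Period gene passed the test, and the groups overlapped for both. Per2 (Entrez 18627, chr1:91415977-91459351), a repressor that is also induced directly by hormonal and calcium signals, had 14.1, 15.7 and 15.0 CPM in verapamil libraries, against 12.8, 16.3 and 15.2 CPM in control libraries. Its verapamil values lay inside the control range, with a log2 fold change of 0.02 ± 0.10 SE (95% interval -0.22 to 0.26, edgeR adjusted p = 0.911). Per3 (Entrez 18628, chr4:150997018-151044707), a Period protein that is dispensable for the mouse rhythm, had 9.41, 7.85 and 8.54 CPM in verapamil libraries, against 7.75, 7.53 and 9.42 CPM in control libraries. Those ranges overlapped almost fully, at a log2 fold change of 0.06 ± 0.12 SE (95% interval -0.23 to 0.34, edgeR adjusted p = 0.757). Sign was not stable for either gene: the log2 fold change ran from -0.07 to 0.10 for Per2 and from -0.01 to 0.16 for Per3 over the alternatives tried.

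The Cryptochromes, the strongest repressors of BMAL1 and CLOCK, were both at lower mean levels with verapamil, without passing the test. Cry1 (Entrez 12952, chr10:85131700-85185054) had 16.0, 16.2 and 14.5 CPM in verapamil libraries, against 17.1, 15.7 and 16.7 CPM in control libraries. The groups overlapped and the log2 fold change was -0.09 ± 0.08 SE (95% interval -0.27 to 0.10, edgeR adjusted p = 0.463). Cry2 (Entrez 12953, chr2:92403646-92434085) had 17.1, 16.3 and 16.4 CPM in verapamil libraries, against 18.9, 18.9 and 18.9 CPM in control libraries. Here all verapamil values lay below all control values, with means of 16.6 ± 0.45 CPM with verapamil and 18.9 ± 0.0139 CPM in control (SD, n = 3 each). Control counts were 402, 353 and 411, at which counting alone gives a wider spread, so that control SD understates the error. The log2 fold change of Cry2 was -0.19 ± 0.07 SE (95% interval -0.34 to -0.03), with edgeR adjusted p = 0.0696, and it missed the threshold with any 1 library left out as well (adjusted p = 0.0756 to 0.194).

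Among the REV-ERB receptors, which repress Arntl, the groups overlapped for both genes. Nr1d1 (Entrez 217166, chr11:98767932-98775377) had 25.3, 23.5 and 23.9 CPM in verapamil libraries, against 26.7, 29.9 and 23.3 CPM in control libraries. Control replicate 3 lay below every verapamil library and the other control libraries above them, at a log2 fold change of -0.13 ± 0.09 SE (95% interval -0.35 to 0.08, edgeR adjusted p = 0.314). Nr1d1 and the thyroid hormone receptor gene Thra lie on opposite strands and share 263 exonic bases (8.55% of those of Nr1d1). The strand setting of the counting is not given, so reads there cannot be assigned, and Thra was lower with verapamil (log2 fold change -0.32, edgeR adjusted p = 0.0122). Nr1d2 (Entrez 353187, chr14:18204056-18239106) had 46.5, 48.8 and 51.1 CPM in verapamil libraries, against 55.1, 48.5 and 51.4 CPM in control libraries. Its log2 fold change was -0.08 ± 0.07 SE (95% interval -0.24 to 0.07, edgeR adjusted p = 0.390).

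Both output factors had higher means with verapamil, and neither passed the test. Dbp (Entrez 13170, chr7:45705100-45710203), one of the clock genes with the deepest daily swing in many tissues, had 14.8, 16.6 and 15.4 CPM in verapamil libraries, against 10.6, 14.3 and 11.9 CPM in control libraries. Every verapamil library lay above every control library, and control replicate 2 came closest. The means were 15.6 ± 0.877 CPM with verapamil and 12.3 ± 1.90 CPM in control (SD, n = 3 each), with a log2 fold change of 0.35 ± 0.12 SE (95% interval 0.08 to 0.62, edgeR adjusted p = 0.0521). Without control replicate 2 the log2 fold change was 0.47 (adjusted p = 0.00397), and over all alternatives the adjusted p of Dbp ran from 0.00397 to 0.173. Dbp shares 539 exonic bases (18% of its own) with Sphk2, a sphingosine kinase gene on the other strand, which had 59.4, 57.2 and 55.9 CPM in verapamil libraries, against 47.2, 53.8 and 51.3 CPM in control libraries. How many reads of the 2 genes were exchanged was not tested.

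Tef (Entrez 21685, chr15:81802673-81826863), a close relative of Dbp, had 71.6, 73.8 and 69.4 CPM in verapamil libraries, against 63.6, 59.9 and 74.7 CPM in control libraries. Control replicate 3 lay above all verapamil libraries and the other control libraries below them. The log2 fold change was 0.11 ± 0.08 SE (95% interval -0.08 to 0.31, edgeR adjusted p = 0.331), and without control replicate 3 it was 0.21 (adjusted p = 0.0306).

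**Figure D2:**
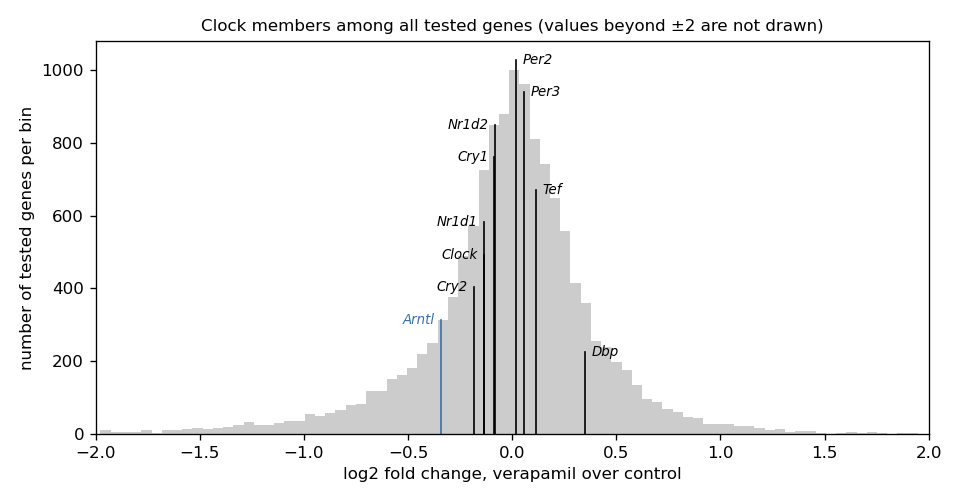
Histogram of log2 fold changes (verapamil over control, horizontal axis) of the tested genes, with a line for each clock gene; line heights only separate the labels. Arntl at -0.34 (blue, past the test) and Dbp at 0.35 are the outermost, and the other 8 lie between -0.19 and 0.11.

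Set against all tested genes, even the largest of these changes were moderate. Of the tested genes, 69.8% had a smaller absolute log2 fold change than Arntl and 70.9% a smaller one than Dbp. For Per2 the share was 6.05% and for Per3 it was 16.8%. The SE of the log2 fold change was 0.07 to 0.12 for the clock genes, with a median of 0.09, the same as the median of 0.09 over all tested genes. Counts behind these values ran from 141 for Per3 in control replicate 2 to 1805 for Clock in control replicate 1.

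Levels were compared between genes per kilobase of the longest coding transcript (CPM per kb). Tef led with verapamil at 16.3 ± 0.489 CPM per kb, followed by Arntl at 12.7 ± 0.758, while in control libraries Arntl had 16.0 ± 1.81 and Tef 15.0 ± 1.75 CPM per kb (SD, n = 3 each). The ranges of Tef and Arntl did not overlap with verapamil and did overlap in control. Below them came Nr1d2 and Nr1d1, at 10.5 and 8.90 CPM per kb with verapamil and 11.1 and 9.78 CPM per kb in control. Dbp stood above Clock with verapamil (8.49 and 7.22 CPM per kb) and below it in control (6.67 and 7.93 CPM per kb). Those 2 ranges were apart with verapamil and overlapped in control, as did those of Nr1d2 with Nr1d1 and of Nr1d1 with Clock. With verapamil the ranges of Nr1d1 and Dbp overlapped. Cry1, Cry2, Per2 and Per3 filled the last 4 places in this order in both groups, each apart from its neighbours, and Per3 was lowest at 1.43 CPM per kb with verapamil and 1.37 CPM per kb in control.

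Differences between pairs of clock genes within a library do not depend on the scaling between libraries. They are given on the log2 scale of counts, as a description with no test. Arntl minus Dbp was 1.41, 1.22 and 1.19 in verapamil libraries, against 2.19, 1.88 and 1.82 in control libraries. The groups were apart, with means of 1.27 ± 0.118 with verapamil and 1.96 ± 0.198 in control (SD, n = 3 each), a difference of -0.69. This had to be so, because every verapamil library was below the controls for Arntl and above them for Dbp. Arntl minus Nr1d1, an activator set against its own repressor, was 0.64, 0.71 and 0.55 in verapamil libraries, against 0.86, 0.82 and 0.85 in control libraries. Here too the groups were apart, by -0.21 on average. Clock minus Per2 was 2.28, 2.22 and 2.20 in verapamil libraries, inside the control values of 2.72, 1.99 and 2.43. Cry1 minus Nr1d1 also overlapped, with means of -0.64 ± 0.0989 with verapamil and -0.68 ± 0.226 in control libraries (SD, n = 3 each).

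**Figure D3:**
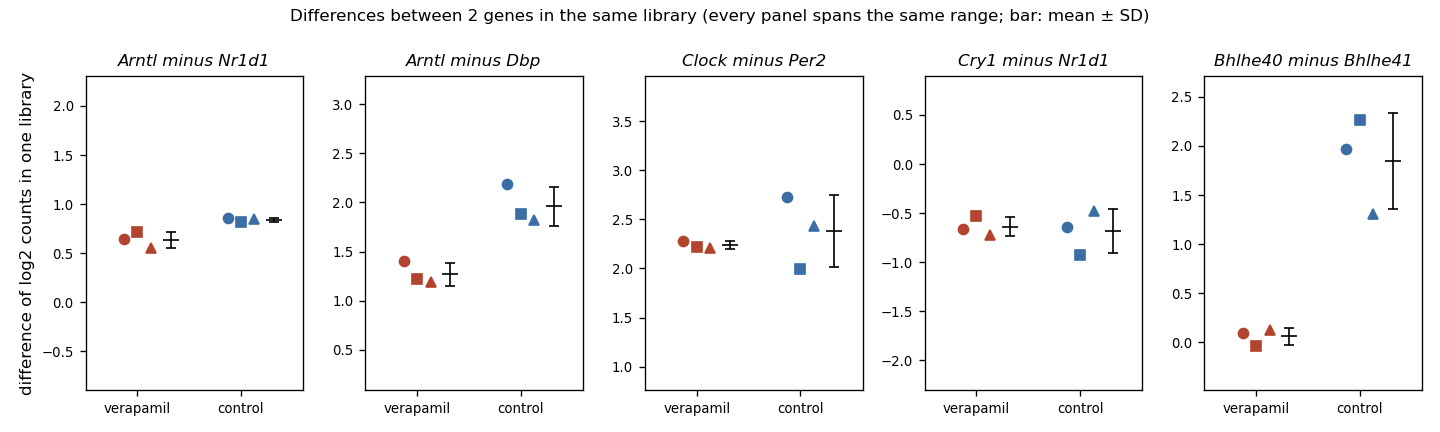
Difference between the log2 counts of 2 genes in the same library (vertical axis, all panels spanning the same range), for 3 verapamil libraries (left, red) and 3 control libraries (right, blue), with mean ± SD. Arntl minus Dbp, Arntl minus Nr1d1 and Bhlhe40 minus Bhlhe41 are lower in every verapamil library, and the other 2 pairs overlap.

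The feedback loop is written in short DNA motifs, and promoter windows from RefSeq (GRCm38.p6, 250 bases before to 50 after a start) were searched for them in 9 of the 10 genes. Per2 had no window and was not searched, and sites outside the windows were not looked at. The letters searched, on both strands, were CACGTG (E-box), CACGTT (E-box-like), TTATGTAA and TTACGTAA (D-box), AGGTCA (core of the REV-ERB and ROR element), TGACGTCA (cAMP response element) and the palindromic glucocorticoid response element. CACGTG was found in Cry1 and Tef and in 8.09% of all genes with a window, CACGTT in Cry1, Cry2 and Nr1d1 and in 5.44% of genes. TTATGTAA occurred in Per3 alone among them and in 1.11% of genes, and AGGTCA in Arntl, Clock and Nr1d2 and in 18.1% of genes. TTACGTAA (0.126% of genes), TGACGTCA (2.03%) and the glucocorticoid response element (0.0111%) had no match in these windows. Dbp was searched and had no match to any of the motifs. A match is a description of the letters, and no matches overlapped each other in these genes.

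Sequences of 4 genes are shown because they hold a REV-ERB and ROR core (Arntl), an E-box (Cry1 and Tef) or a D-box (Per3), with that motif in capitals, read 5′ to 3′ along the strand of the gene. The Arntl stretch (chr7:113207530-113207559, plus strand) is in the transcribed part just after an internal start of the gene, the kind of site that REV-ERB and ROR receptors share. For Cry1 (chr10:85185079-85185144, minus strand) it lies upstream of the gene and holds the E-box, and the E-box-like match on the other strand is left in lower case before it. Both Per3 stretches (chr4:151044833-151044900 and chr4:151044786-151044853, minus strand) are upstream of the start and hold a D-box each, the motif that DBP and TEF bind. For Tef (chr15:81802516-81802581, plus strand) the E-box lies upstream of the first start.
Arntl: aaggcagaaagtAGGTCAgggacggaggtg
Cry1: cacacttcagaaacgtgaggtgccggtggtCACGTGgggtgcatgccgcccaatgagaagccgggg
Per3 distal: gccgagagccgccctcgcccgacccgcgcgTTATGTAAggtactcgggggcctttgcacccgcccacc
Per3 proximal: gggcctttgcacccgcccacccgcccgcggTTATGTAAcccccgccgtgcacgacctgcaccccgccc
Tef: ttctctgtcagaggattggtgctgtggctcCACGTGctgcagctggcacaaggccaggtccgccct

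**Figure D4:**
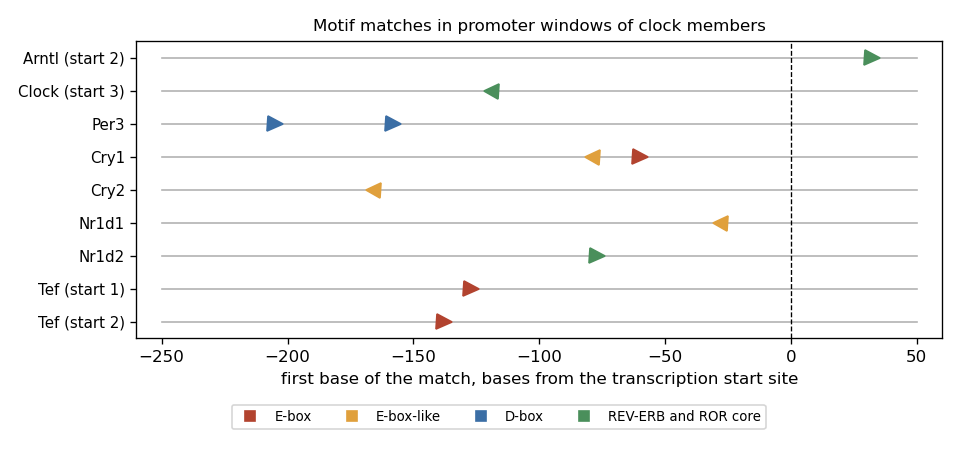
Position of motif matches (first base, in bases from the transcription start site) in the promoter windows of clock genes that hold one; triangles point along the strand of the match and colours give the motif. E-box matches of Cry1 and Tef lie between -138 and -60, and the D-box matches of Per3 lie at -205 and -158.

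Partners and repressors that act on the same DNA motifs were read from a list chosen, like the lists after it, with earlier results of these data known. Of 12 paralogs and partners, 9 were tested, 4 fell, 1 rose and 4 did not pass, with a median log2 fold change of -0.39. That is 55.6% called, beside 31.7% of all tested genes, and no test compared the list with other genes. Bhlhe40, which encodes the E-box repressor DEC1, had 54.0, 50.4 and 57.5 CPM in verapamil libraries, against 132.9, 145.5 and 89.1 CPM in control libraries. It fell by 1.18 on the log2 scale (0.18 SE, edgeR adjusted p = 0.00401), and stayed between -1.37 and -1.05 with any 1 library left out. Bhlhe41, which encodes the related repressor DEC2, had 50.5, 51.7 and 52.7 CPM in verapamil libraries, against 34.0, 30.3 and 36.0 CPM in control libraries. It rose by 0.63 on the log2 scale (0.07 SE, edgeR adjusted p = 7.47e-04).

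Bhlhe40 minus Bhlhe41, a pair chosen after its values were seen, averaged 0.06 ± 0.0868 with verapamil and 1.85 ± 0.488 in control libraries on the log2 scale of counts (SD, n = 3 each). Bhlhe40 is also known as a gene induced by low oxygen. Its control values had the order of the summed low-oxygen genes, which were 2973, 4382 and 1961 CPM in control replicates 1, 2 and 3. The first principal component had that order as well. The part of the low-oxygen genes in the change of Bhlhe40 was not tested. The exons of Bhlhe41 share 19% of their bases with a predicted gene on the other strand, Gm43909, which is not analysed here.

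Npas2, a paralog that can stand in for CLOCK, had 6.27, 5.05 and 5.17 CPM in verapamil libraries, against 8.08, 9.72 and 8.41 CPM in control libraries. It fell by 0.67 on the log2 scale (0.13 SE, edgeR adjusted p = 0.00638), with the groups apart. Nfil3, whose product E4BP4 represses the D-boxes that DBP and TEF activate, had 22.8, 23.9 and 22.4 CPM in verapamil libraries, against 32.5, 35.8 and 28.9 CPM in control libraries. It fell by 0.49 on the log2 scale (0.09 SE, edgeR adjusted p = 0.00443). Calls of Bhlhe40, Bhlhe41, Npas2 and Nfil3 held with each library left out in turn (adjusted p at most 0.0362).

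Timeless, which in mammals acts mainly at replication forks, averaged 9.68 CPM with verapamil and 11.98 CPM in control libraries (log2 fold change -0.31, edgeR adjusted p = 0.0428), a call that was lost without each library in turn except control replicate 2 (adjusted p = 0.0765 to 0.138) and under 6 other alternatives. Per1, the Period gene most readily induced by calcium and glucocorticoids, had 77.2, 77.9 and 75.9 CPM in verapamil libraries, against 79.1, 87.8 and 79.9 CPM in control libraries. Its groups were apart by a small margin, at a log2 fold change of -0.10 ± 0.06 SE (edgeR adjusted p = 0.249). Rora, the ROR receptor that activates Arntl, was at -0.23 ± 0.09 SE (edgeR adjusted p = 0.0870), the BMAL1 paralog gene Arntl2 at -0.42 ± 0.20 SE (edgeR adjusted p = 0.143) and Ciart, which encodes the repressor CHRONO, at -0.39 ± 0.21 SE (edgeR adjusted p = 0.195). Without control replicate 2 both Rora and Arntl2 passed (adjusted p = 0.0124 and 0.0207). Rorb and Hlf had 18.96 and 35 counts over the 6 libraries and were not tested.

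**Figure D5:**
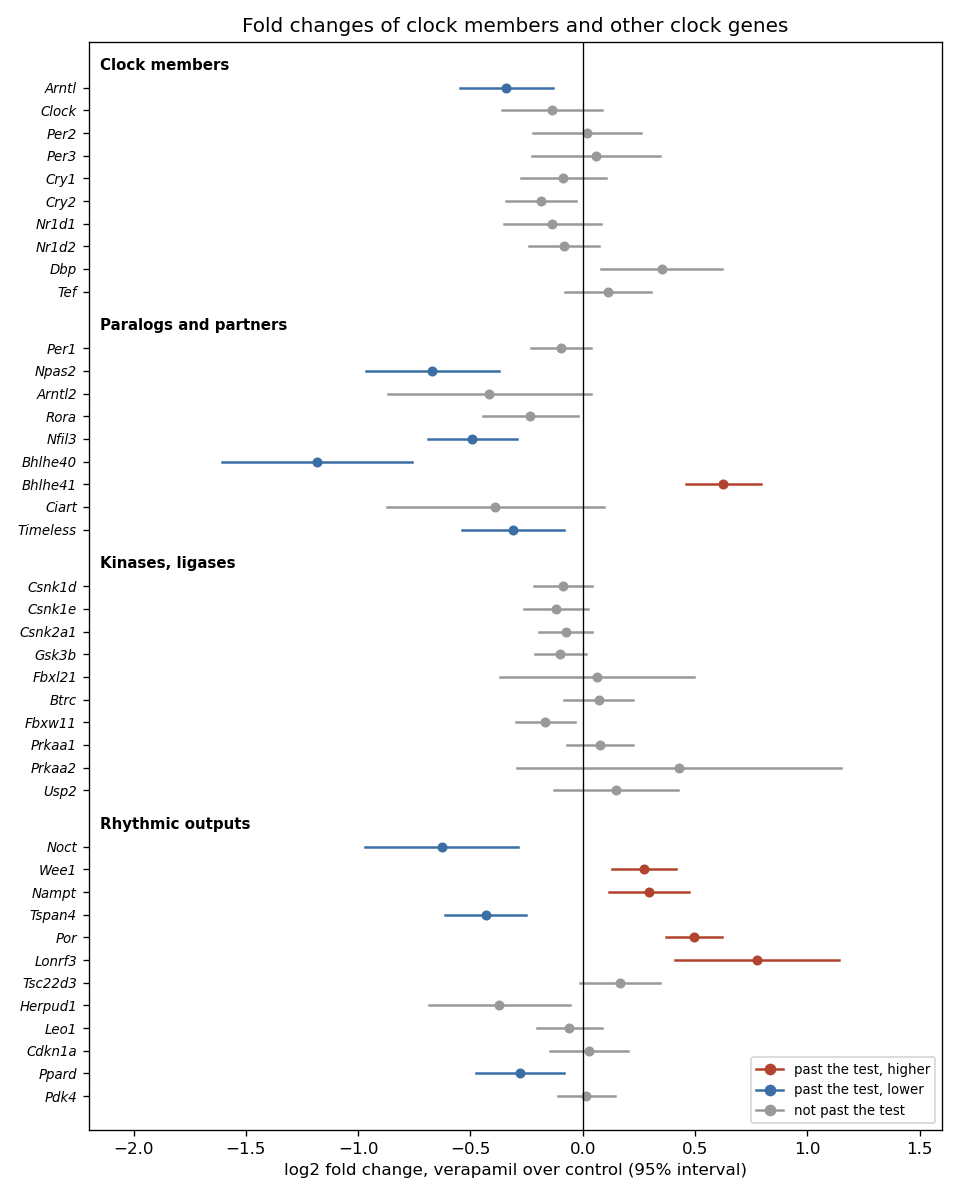
Log2 fold change of verapamil over control with its 95% interval (horizontal axis) for the 10 clock members and other tested clock genes in 3 groups. Red and blue points passed edgeR's test as higher and lower, grey points did not; Bhlhe40 at -1.18 and Lonrf3 at 0.78 are the extremes.

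Kinases and ubiquitin ligases that set the stability of PER and CRY proteins, listed with the deubiquitinase gene Usp2, did not move past the test. None of the 11 passed in edgeR, DESeq2 or limma-voom, where 31.7%, 29.7% and 31.8% of all tested genes did. Only 1, Fbxw11, was at an unadjusted p under 0.05 in edgeR, beside 43.4% of all tested genes. Casein kinase genes Csnk1d and Csnk1e, whose products phosphorylate PER, had log2 fold changes of -0.09 and -0.12. Btrc and Fbxw11, which encode the ligase subunits for PER, were at 0.07 and -0.17 (edgeR adjusted p = 0.454 and 0.0557). Gsk3b, Csnk2a1, Prkaa1, Usp2 and Fbxl21 lay between -0.10 and 0.15, and Prkaa2, with means of 4.67 CPM with verapamil and 3.44 CPM in control, was at 0.43 ± 0.31 SE. Without control replicate 2 Fbxw11 passed, and without control replicate 3 Prkaa2 did (adjusted p = 0.0342 and 0.0278).

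Genes known to be rhythmic in many tissues went both ways. Of 12, 4 rose, 3 fell and 5 did not pass (58.3% called, beside 31.7% of all tested genes), with a median log2 fold change of 0.02. Por, the electron donor of cytochrome P450 enzymes, had 147.3, 145.9 and 145.1 CPM in verapamil libraries, against 98.4, 108 and 104 CPM in control libraries (log2 fold change 0.50, edgeR adjusted p = 6.19e-04). Lonrf3, a RING finger gene, rose by 0.78 and Tspan4, a tetraspanin gene, fell by 0.43 on the log2 scale, and calls of Por, Lonrf3 and Tspan4 held without each library in turn (adjusted p at most 0.0429).

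The other 4 calls were less stable. Noct, which encodes nocturnin, fell by 0.63 on the log2 scale, a call lost without verapamil replicate 1 or 3 (adjusted p = 0.0594 and 0.0579). Wee1, a cell cycle kinase gene driven through E-boxes, rose by 0.27, and did not pass without verapamil replicate 1 (adjusted p = 0.0695). Nampt, the rate-limiting enzyme of NAD salvage, rose by 0.30 and Ppard, a nuclear receptor gene, fell by 0.28, and neither passed without verapamil replicate 1, 2 or 3 (adjusted p = 0.0502 to 0.133). The count of rhythmic outputs called was 3 without verapamil replicate 1 and 4 without verapamil replicate 3. All genes called in those refits numbered 2249 and 2625, against 4235 with all 6 libraries. Herpud1 (-0.37), Tsc22d3 (0.17), Leo1 (-0.06), Cdkn1a (0.03) and Pdk4 (0.02) did not pass. Herpud1 passed without control replicate 3 (adjusted p = 0.00164) and Tsc22d3 without control replicate 2 (adjusted p = 0.0311).

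Signals that reset the clock were read from 2 further lists. In the cAMP and calcium list, 5 of 13 genes fell, 3 rose and 5 did not pass (61.5% called, beside 31.7% of all tested genes), with a median log2 fold change of -0.10. Immediate-early genes of this list went both ways. Fosb (-1.65), Egr1 (-0.98), Nr4a2 (-0.81) and Nr4a1 (-0.63) fell, but the call of Nr4a2 was lost on leaving out any verapamil library or control replicate 1 (adjusted p = 0.0546 to 0.0737). The 3 genes that rose are named after their values were seen. Dusp1, which encodes a phosphatase of MAP kinases, rose by 0.47 on the log2 scale (edgeR adjusted p = 0.00316) and passed with each library left out. Fos, which encodes a subunit of AP-1, rose by 0.33 (edgeR adjusted p = 0.0209), a call lost without verapamil replicate 1 or 3 or control replicate 1 (adjusted p = 0.0594 to 0.0912). Sik1, whose product restrains the clock's response to such signals in mice, rose by 0.27. That call was lost without verapamil replicate 1, 2 or 3 (adjusted p = 0.0531 to 0.0700). Count of calls in this list was 5 without verapamil replicate 1 or 3.

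In the glucocorticoid list, none of 10 genes passed in edgeR, 1 was at an unadjusted p under 0.05, and DESeq2 and limma-voom called 1 each. The shares of all tested genes were 31.7%, 43.4%, 29.7% and 31.8% in the same order. The 2 genes with the highest means were Fkbp5, a classic glucocorticoid target, at 0.20 ± 0.07 SE (edgeR adjusted p = 0.0508), and Tsc22d3 at 0.17 ± 0.08 SE. Without control replicate 2 or 3 there were 2 calls in this list, and Fkbp5 was one of them (adjusted p = 0.0483 and 0.0184).

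Genes whose profile over the 6 libraries was nearest to 4 of the clock genes were found by Euclidean distance between centred log2 CPM values. The search covered 10527 genes that averaged 5 CPM or more. Genes of the clock lists, predicted genes, clones and pseudogenes were left out of it. Nearest to Arntl were Osgepl1, Vhl and Lsp1 (distances 0.08, 0.10 and 0.10 log2 units). Those nearest to Dbp were Sts, Ndufa1 and Tepsin (0.13, 0.14 and 0.14). Nr1d1 had Pea15a, Kcmf1 and Yif1a (0.04, 0.06 and 0.07), and Cry1 had Vkorc1l1, Ap1ar and Ggps1 (0.07, 0.07 and 0.08). Among these 12 genes, Lsp1 and Vhl were lower and Ndufa1 was higher with verapamil by edgeR's test (adjusted p = 0.00530, 0.0326 and 0.0185). The other 9 did not pass, and 31.7% of all tested genes did. These genes were picked for their likeness to a clock gene over the same libraries, so their direction is no separate support.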

How the data were processed

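The authors deposited 1 table of estimated counts per gene, a read count per the file headers, with no scaling to depth or gene length; 67.7% of its values were not whole. The submitters' processing notes name GRCm38 (mm10). Which aligner, counter, annotation and strand option were used is not given in the sources used here. Estimated counts were rounded and filtered with filterByExpr (minimum count 10, minimum total 15). They were scaled with TMM and tested with edgeR 4.0.16 in R 4.3.3 (robust quasi-likelihood fit, verapamil over control, Benjamini-Hochberg adjustment, threshold 0.05). The SE was taken as |log2 fold change| divided by √F, and the 95% interval uses the degrees of freedom of the test. Log2 CPM used a prior count of 2, and differences within a library added 0.5 to each count. Alternatives included DESeq2 1.42.0 and limma-voom (limma 3.58.1). The fit was tested on simulated data. Coordinates and promoter sequences came from RefSeq (GRCm38.p6), transcript lengths and exon overlaps from GENCODE vM21. Genes were named by a rule: all clock genes listed (2 of them are counted but not reported here), up to 4 called genes of the 2 input lists (or 2 with the highest mean), and the 3 nearest profiles of 4 clock genes. The genes and lists were chosen with earlier results of these data known.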

Additional observations from a re-analysis of the deposited data

How the results depend on the processing

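Over 17 alternatives, the 10 clock genes kept their side of the threshold in 156 of 170 combinations of gene and alternative, lost a call in 5 and gained one in 9. The genes share each fit, and the alternatives at 0.01 and 0.10 only moved the threshold of the main fit. The count of clock genes called was 1, and it was 2 (Arntl and Dbp) with upper quartile factors, library totals alone, no filter or limma-voom. It was 0 at a threshold of 0.01 and 3 at 0.10. With 1 library left out it ran from 0 to 3. All genes called numbered 4235, against 1969 at 0.01, 5523 at 0.10 and 2236 to 5042 with 1 library left out. Libraries that share a number were not shown to be pairs: their deviations from the group means correlated at 0.01, -0.17 and -0.13 for numbers 1, 2 and 3. With the replicate block the counts were 1 clock gene and 2953 genes. Kinases and ligases gained 1 call with at least 5 CPM in 3 libraries and 1 at 0.10, and had 0 to 1 with 1 library left out. Calls among rhythmic outputs were 3 at 0.01 and 3 to 8 with 1 library left out, those among the 32 other clock genes 7 at 0.01 and 7 to 16, and those among paralogs and partners 4 to 7. With the replicate block, Nampt, Ppard, Timeless, Sik1 and Fos lost their call (adjusted p = 0.0534 to 0.0971). Causes of these differences were not tested. An SE of about 0.09 limits what these libraries show: the 95% interval of Clock still holds a log2 fold change of -0.36 and that of Per3 one of 0.34.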
